A study of Mus musculus with 2 samples.

Results

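The insulin-like growth factor (IGF) family was described here through 10 genes in the cells of the mouse mesentery: the ligands Igf1 and Igf2, the receptors Igf1r and Igf2r, and the binding proteins Igfbp2, Igfbp3, Igfbp4, Igfbp5, Igfbp6 and Igfbp7. The genes were taken by symbol, and each of the 10 matched 1 row of the 27998 genes in the matrix. Whole mesentery of 2 untreated male wild-type C57BL/6N mice was dissociated with Liberase DH, a tissue-digesting enzyme blend, and single cells were captured with version 2 of the Chromium 3′ chemistry, which counts each RNA molecule once through a unique molecular identifier (UMI). Both animals belong to 1 group, with no treatment and no genetic change, so the comparisons are between cell types within the animals. The labels give a date of birth but no age at collection.

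IGF1 and IGF2 are secreted growth factors that signal through the IGF1 receptor, a tyrosine kinase, while the IGF2 receptor, also known as the cation-independent mannose 6-phosphate receptor, takes IGF2 up for degradation and carries lysosomal enzymes. Most IGF in blood and tissue fluid is held by binding proteins, which lengthen its life, keep it from the receptor, or release it near cells when proteases cut them. The mesentery is a sheet of connective tissue, fat, vessels and immune cells covered on both faces by mesothelium, and fibroblasts and macrophages of many tissues are known local sources of IGF1.

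Igfbp2 and Igfbp5 are neighbours in the mouse genome, and the other 8 genes lie apart (positions in GRCm38, GENCODE M21). Igf1 lies at chr10:87858265-87937042 on the plus strand. Igf2 lies at chr7:142650766-142666816 on the minus strand and Igf1r, on the same chromosome, at chr7:67952827-68233668 on the plus strand. Igf2r lies at chr17:12682406-12769664 on the minus strand. Igfbp2, at chr1:72824503-72852474 on the plus strand, and Igfbp5, at chr1:72857932-72874884 on the minus strand, stand tail to tail with 5457 bases between them. Igfbp3 lies at chr11:7206086-7213923 on the minus strand and Igfbp4 at chr11:99041244-99054392 on the plus strand. Igfbp6 lies at chr15:102144362-102149511 on the plus strand, and Igfbp7 at chr5:77349240-77408041 on the minus strand. Genes annotated across Igf1, Igf2, Igf2r and Igfbp7 (among them Igf1os, Igf2os, Airn and Polr2b on the opposite strand) could share reads with them, since the sources used here do not say whether strand was used in the counting.

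The promoters of the 4 members whose levels were highest in mesothelium or in one set of fibroblasts are shown because these genes carry the differences between cell types described below. Each stretch runs 250 bases before to 50 after the start of the gene in RefSeq (GRCm38.p6), 5′ to 3′ on the gene's own strand: Igfbp2 at chr1:72824230-72824529 (plus, the first of 2 starts listed), Igfbp5 at chr1:72874816-72875115 (minus), Igfbp4 at chr11:99040994-99041293 (plus) and Igfbp6 at chr15:102143936-102144235 (plus). Capitals mark TATAAA and GGGCGG, the cores of the TATA box and of the GC box bound by Sp1, searched on both strands with overlaps kept.
Igfbp2: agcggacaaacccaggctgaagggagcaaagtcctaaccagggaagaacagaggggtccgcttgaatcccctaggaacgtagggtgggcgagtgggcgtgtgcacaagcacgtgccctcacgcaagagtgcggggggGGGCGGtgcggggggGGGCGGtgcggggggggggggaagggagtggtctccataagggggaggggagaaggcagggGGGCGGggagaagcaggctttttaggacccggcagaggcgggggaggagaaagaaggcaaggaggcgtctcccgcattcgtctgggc
Igfbp5: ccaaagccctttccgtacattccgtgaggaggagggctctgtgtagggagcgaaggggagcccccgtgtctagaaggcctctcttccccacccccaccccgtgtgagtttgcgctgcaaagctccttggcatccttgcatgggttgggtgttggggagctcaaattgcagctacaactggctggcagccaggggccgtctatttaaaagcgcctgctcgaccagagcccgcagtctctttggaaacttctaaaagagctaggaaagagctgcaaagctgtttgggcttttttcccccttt
Igfbp4: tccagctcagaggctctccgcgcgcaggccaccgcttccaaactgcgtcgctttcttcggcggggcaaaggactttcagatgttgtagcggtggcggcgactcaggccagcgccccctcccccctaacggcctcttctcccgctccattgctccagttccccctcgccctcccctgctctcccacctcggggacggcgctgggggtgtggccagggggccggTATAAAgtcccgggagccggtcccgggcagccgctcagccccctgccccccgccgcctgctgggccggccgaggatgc
Igfbp6: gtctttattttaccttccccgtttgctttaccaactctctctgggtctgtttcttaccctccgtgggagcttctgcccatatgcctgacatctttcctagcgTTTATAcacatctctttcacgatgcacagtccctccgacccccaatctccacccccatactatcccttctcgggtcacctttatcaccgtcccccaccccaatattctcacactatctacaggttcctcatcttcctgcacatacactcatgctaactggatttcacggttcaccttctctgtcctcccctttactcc
The Igfbp2 stretch held 3 GGGCGG matches and the neighbouring Igfbp5 stretch held neither motif. Igfbp4 had 1 TATAAA match close to its start. Igfbp6 had 1 TATAAA match on the opposite strand, read above as its complement, and its RefSeq stretch ends before the start that GENCODE gives. Of 32851 promoter stretches of this length, 13.6% held TATAAA and 35.7% held GGGCGG, so these matches are a description of the letters only.

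The 2 libraries held 1517 and 1687 barcodes with 5137671 and 5563521 UMIs, and 3100 cells were kept (1445 and 1655). No barcode sequence was shared between the libraries. Cells were grouped into 17 clusters without any IGF gene among the genes used, and clusters were named from marker genes: fibroblast-like (993 cells, 4 clusters), endothelial-like (345), T-like (336, 2 clusters), macrophage-like (251), mesothelial-like (244), B-like (236), pericyte-like (158), monocyte-like (150), ILC2-like (130, group 2 innate lymphoid cells), NK- or ILC1-like (94) and dendritic-like (76), with 87 cells left unnamed. Mesothelial-like cells made up 4.64% of library 1 and 10.7% of library 2 and were the deepest, with a median of 6117 UMIs. All 12 endothelial markers were above 2-fold in the endothelial-like cluster, which was led by haemoglobin genes and Car3. A level is given below in CPM, the UMIs of a gene scaled to a total of 1000000 UMIs of the class, library 1 before library 2. Endothelial markers also summed to 5950 and 6101 CPM in pericyte-like cells, against 7901 and 7174 CPM in endothelial-like cells. Differences are log2 fold changes of class sums from edgeR's quasi-likelihood test with library as a block and p-values adjusted over all genes tested (Benjamini-Hochberg), called at 0.05. With only 2 animals, the p-values rest on a spread of the class differences that edgeR estimates by sharing information over genes. They do not measure how far the level of a gene differs between animals.

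**Figure D1:**
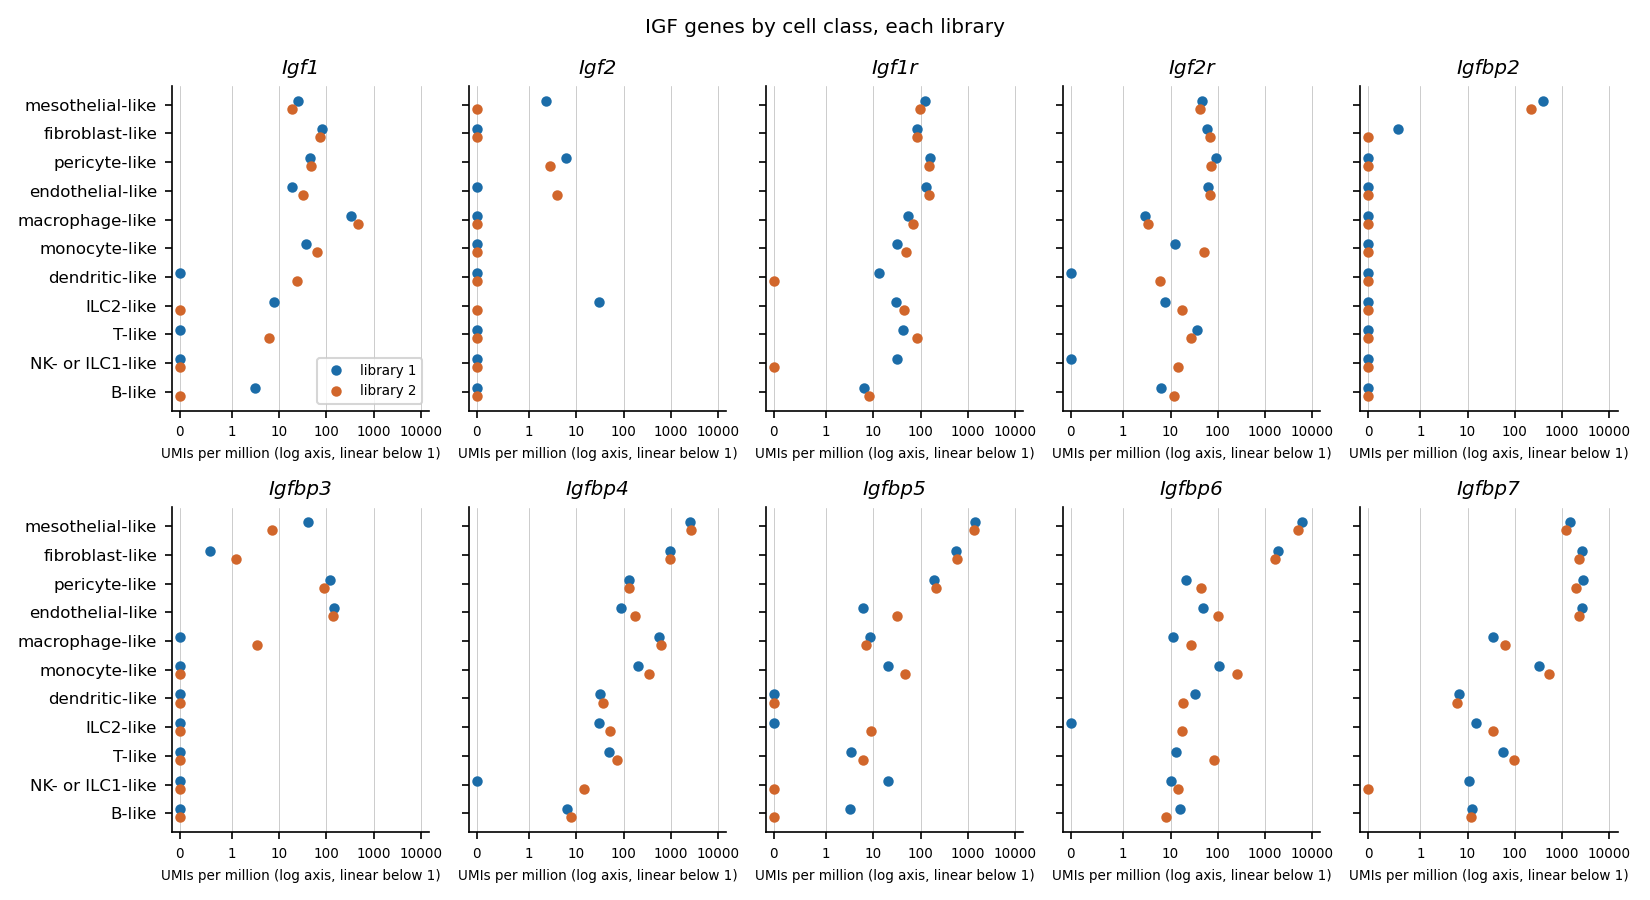
CPM of each of the 10 IGF genes (x axis, logarithmic and linear below 1) in each of 11 cell classes (y axis), with 1 point per library. Igfbp2 stands alone in mesothelial-like cells at 401 and 215, Igf1 is highest in macrophage-like cells at 327 and 460, and Igfbp7 lies above 1000 in 4 stromal and vascular classes.

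Igf1, the growth factor itself, was highest in macrophage-like cells and second in fibroblast-like cells. It stood at 327 and 460 CPM in macrophage-like cells, against 44.0 and 45.3 CPM in all other cells together. In both libraries the macrophage-like value lay above every other class. The log2 fold change was 3.37 (SE 0.17, adjusted p = 2.18e-79), and 13.8% of the genes tested were called higher in this comparison. After each cell was thinned to 1000 UMIs, 22.0% and 41.3% of macrophage-like cells kept an Igf1 UMI, against 0 of 154 and 0 of 162 T-like cells, which allow up to 1.95% and 1.85%. Of B-like cells 1 of 126 and 0 of 98 did. Without thinning the macrophage-like shares were 53.3% and 58.1%.

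Fibroblast-like cells held 82.6 and 73.6 Igf1 CPM, against 54.1 and 64.8 CPM in all other cells. This smaller difference was also called (log2 0.54, SE 0.17, adjusted p = 0.00551). Fibroblast-like cells were higher in 6 of the 9 members tested, where 22.7% of all tested genes were called higher, and lower in Igfbp2 and Igfbp3, where 25.9% were called lower. Against the mean of the other classes 0 were called lower, where 18.1% of tested genes were. Because fibroblast-like cells were the most numerous class, they supplied 46.2% and 33.0% of all Igf1 UMIs, beside 36.5% and 36.5% from macrophage-like cells. DESeq2's test did not call the fibroblast-like difference (log2 0.53, adjusted p = 0.484).

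Igf1 was low in the lining and vessel classes. Its level in mesothelial-like cells was 24.6 and 18.8 CPM, while all other cells had 68.3 and 78.4 CPM (log2 -1.98, SE 0.24, adjusted p = 3.98e-15, with 25.1% of tested genes called lower). Endothelial-like cells held 18.4 and 31.7 CPM, against 69.5 and 71.1 CPM in all other cells (log2 -1.54, adjusted p = 0.000753, with 21.6% called lower). Pericyte-like cells held 44.6 and 46.2 CPM, against 65.8 and 69.0 CPM in all other cells (log2 -0.76, adjusted p = 0.0267, with 18% called lower). These 3 directions turned when each class was set against the mean of the other classes, which weights the lymphocyte classes equally: log2 0.46 (adjusted p = 0.528) for mesothelial-like, 0.77 (adjusted p = 0.29) for endothelial-like and 1.61 (adjusted p = 0.00773) for pericyte-like cells. DESeq2's test did not call the endothelial-like difference (adjusted p = 0.0643) or the pericyte-like one (adjusted p = 0.441). With the stricter cell filter the pericyte-like difference was not called (adjusted p = 0.11). Monocyte-like cells held 37.3 and 62.4 CPM. Fibroblast markers summed to 3005 and 5978 CPM in monocyte-like cells, and their part in the IGF values of that class was not tested.

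Igf2, the ligand that is abundant in the embryo and falls after birth in the mouse, was almost undetected. Over all cells it had 7 UMIs in library 1 and 3 in library 2. In library 1, 4 came from ILC2-like cells, 2 from pericyte-like and 1 from mesothelial-like cells, and in library 2, 2 came from endothelial-like and 1 from pericyte-like cells. Igf2 was therefore below the filter on low counts in every comparison. Among fibroblast-like cells, where no UMI was seen, the count of 0 allows up to 1.72 and 1.81 CPM.

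Igf1r, the signalling receptor, was present in every stromal class and in one of the T-like clusters. It had 155 and 150 CPM in pericyte-like cells, against 72.9 and 78.6 CPM in all other cells (log2 0.81, SE 0.16, adjusted p = 0.00133, with 13.6% of tested genes called higher). Endothelial-like cells held 131 and 153 CPM, against 72.7 and 76.3 CPM (log2 0.86, SE 0.17, adjusted p = 0.00141, with 16.5% called higher). The order of these 2 classes exchanged between the libraries, and their difference was not called (log2 0.01, SE 0.23). DESeq2's test called neither comparison with all other cells (adjusted p = 0.108 and 0.133). Mesothelial-like cells followed with 123 and 98.1 CPM and fibroblast-like cells with 84.8 and 83.3 CPM, and neither was called against all other cells (log2 0.34, adjusted p = 0.0587, and log2 0.23, adjusted p = 0.235).

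Within T-like cells the receptor differed between the 2 clusters, a comparison made after the values were seen. Cluster 1, of 84 cells led by Cd163l1, had 11 and 24 Igf1r UMIs, or 191 and 316 CPM, against 2 and 3 UMIs, or 8.11 and 11.8 CPM, in the 252 cells of cluster 2. The ratio was 23.6 (95% counting interval 5.14 to 219) in library 1 and 26.7 (8.12 to 139) in library 2, with an adjusted p of 4.78e-12 from edgeR, where 5.19% of tested genes were called higher. At 1000 UMIs a cell, 21.9% and 18.6% of cluster 1 cells carried an Igf1r UMI, against 0.82% and 1.68% of cluster 2 cells, and without thinning 7 of 35 and 19 of 49 cells did, against 2 of 125 and 3 of 127. T cell markers summed to 2920 and 2320 CPM in cluster 1 and 2771 and 2394 CPM in cluster 2. Cluster 1 was the less clearly named: 3 of 9 T cell markers were above 2-fold there, the fewest a name allowed, against 7 of 9 in cluster 2. Of the other members only Igfbp7 was tested between these clusters, and it was lower in cluster 1, with 0 and 1 UMIs against 17 and 30 (adjusted p = 0.0023, 5.15% called lower). Fibroblast markers, which moved the same way, summed to 52.1 and 105 CPM in cluster 1 against 81.1 and 627 CPM in cluster 2, and their part in the Igfbp7 values was not tested.

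**Figure D2:**
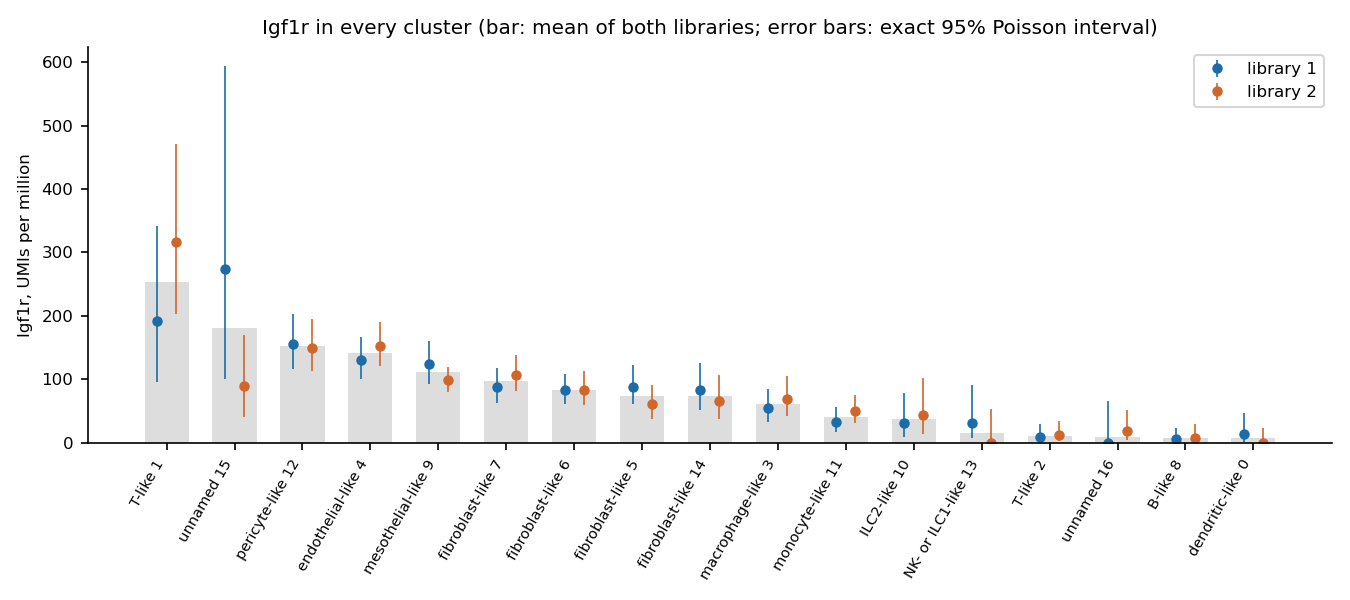
Igf1r in CPM (y axis) in each of the 17 clusters (x axis, class name and cluster number), ordered by the mean of the libraries (bars), with 1 point per library and exact 95% Poisson intervals that cover counting error only. T-like cluster 1 lies at 191 and 316, against 8.11 and 11.8 in T-like cluster 2, and unnamed cluster 15 rests on 27 cells.

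Igf2r, the receptor that clears IGF2, was highest in pericyte-like cells at 92.2 and 70.7 CPM, against 38.5 and 47.1 CPM in all other cells (log2 0.72, SE 0.25, adjusted p = 0.0376). Fibroblast-like cells held 58.5 and 69.4 CPM, against 33.1 and 39.7 CPM (log2 0.96, SE 0.18, adjusted p = 9.00e-06). DESeq2's test called neither (adjusted p = 0.426 for pericyte-like and 0.135 for fibroblast-like cells). Endothelial-like cells, at 61.3 and 69.4 CPM, could not be ordered against fibroblast-like cells, since the libraries gave opposite orders. Pericyte-like cells were not called different from fibroblast-like cells (log2 0.16, adjusted p = 0.693) or from endothelial-like cells (log2 0.22, adjusted p = 0.85). In normalized values both differences turned in library 2 (log2 -0.16 and -0.07). Macrophage-like cells had 1 UMI in each library, or 2.87 and 3.41 CPM, against 45.3 and 51.2 CPM in all other cells (adjusted p = 4.45e-07, with 19.8% of tested genes called lower). The Igf1r level of macrophage-like cells, 54.6 and 68.1 CPM against 80.4 and 84.2 CPM in all other cells, was not called (log2 -0.19, adjusted p = 0.637).

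Among the binding proteins, Igfbp2, Igfbp4, Igfbp5 and Igfbp6 were highest in mesothelial-like cells when the 11 classes were compared as wholes. Mesothelial-like cells were higher than all other cells in 4 of the 9 members tested (Igfbp2, Igfbp4, Igfbp5 and Igfbp6) and lower in 2 (Igf1 and Igfbp7), where 22.4% of all tested genes were called higher and 25.1% lower. Against the mean of the other classes 8 were called higher and 0 lower, where 32.4% of tested genes were called higher and 14.5% lower. The median of the 9 log2 fold changes was 0.34, and that of all genes -0.03.

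Igfbp2, a binding protein with a preference for IGF2, was counted almost wholly in mesothelial-like cells. Of its UMIs, 179 of 180 in library 1 and 217 of 218 in library 2 came from them. Mesothelial-like cells held 401 and 215 CPM, compared with 0.227 and 0.223 CPM in the rest, a ratio of 1765 (95% counting interval 313 to 70091) and 963 (171 to 38200). The 2 remaining UMIs lay in a fibroblast-like cell and in an unnamed cluster, and every other class had 0, which allows up to 8.92 and 8.16 CPM in pericyte-like cells, for example. At 1000 UMIs a cell, 22.7% and 17.6% of mesothelial-like cells carried an Igfbp2 UMI, while 0 of 126 and 0 of 98 B-like cells did, which allows shares of up to 2.38% and 3.06%. Without thinning the mesothelial-like shares were 55.2% and 45.2%. Its neighbour on the chromosome, Igfbp5, was high in the same class but not limited to it.

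Igfbp6, which binds IGF2 far more tightly than IGF1, was highest in the mesothelial-like class, whose 5954 and 4978 CPM compare with 775 and 659 CPM in all other cells (log2 2.80, SE 0.07). Nearly every mesothelial-like cell carried it: 97.0% and 94.9% at 1000 UMIs a cell, against 2.38% and 1.02% of B-like cells, and 100% and 100% without thinning, against 3.73% and 1.96%. Of T-like cells 1.30% and 4.32% carried it at 1000 UMIs a cell. Fibroblast-like cells came second with 1892 and 1601 CPM, against 892 and 1390 CPM in all other cells (log2 0.79, SE 0.13, adjusted p = 7.21e-07). In pericyte-like cells it was down to 20.8 and 43.5 CPM, against 1343 and 1555 CPM in all other cells (log2 -5.71, SE 0.21, adjusted p = 4.72e-10).

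Igfbp4, which is cut by the protease PAPP-A to set IGF free, reached 2617 and 2697 CPM in the mesothelial-like class, where all other cells had 471 and 482 CPM (log2 2.35, SE 0.07, adjusted p = 2.73e-210). Fibroblast-like cells held 949 and 959 CPM, against 511 and 859 CPM in all other cells (log2 0.67, SE 0.14, adjusted p = 3.54e-05). Igfbp4 was the one binding protein with a sizeable level in macrophage-like cells, 577 and 613 CPM. That level was not called against all other cells at 675 and 905 CPM (log2 -0.15, adjusted p = 0.375), but it was higher than the mean of the other classes (log2 2.84, adjusted p = 1.27e-17). At 1000 UMIs a cell 41.5% and 47.1% of macrophage-like cells carried it, against 0 of 126 and 0 of 98 B-like cells, which allow up to 2.38% and 3.06%. Without thinning these shares were 73.0% and 65.9% against 1.49% and 1.96%. Of T-like cells 5.19% and 1.85% carried it at 1000 UMIs a cell. Pericyte-like cells held 131 and 133 CPM and endothelial-like cells 89.9 and 174 CPM. Both were called lower than all other cells (log2 -2.83 and -2.78, adjusted p = 9.93e-08 and 3.19e-07) and both turned to log2 0.04 and 0.12 against the mean of the other classes.

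Igfbp5, a binding protein that also attaches to extracellular matrix, had mesothelial-like levels of 1390 and 1331 CPM, with 240 and 247 CPM in all other cells (log2 2.35, SE 0.09, adjusted p = 3.75e-160). Fibroblast-like cells held 560 and 596 CPM, against 226 and 382 CPM in all other cells (log2 1.12, SE 0.15, adjusted p = 2.55e-09). Pericyte-like cells held 190 and 207 CPM, against 358 and 464 CPM. That is lower than all other cells together (log2 -1.23, adjusted p = 0.00021) and higher than the mean of the other classes (log2 3.49, adjusted p = 2.23e-12). Endothelial-like cells had only 3 and 16 UMIs, or 6.13 and 31.7 CPM. Within the fibroblast-like class, cluster 6 (described below) held 927 of 977 and 954 of 988 Igfbp5 UMIs. Its level of 1555 and 1933 CPM was above that of mesothelial-like cells in both libraries.

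Igfbp3, the main carrier of IGF in blood, was highest in the vessel classes. Endothelial-like cells held 143 and 141 CPM, against 13.5 and 8.63 CPM in all other cells (log2 3.63, SE 0.23, adjusted p = 7.61e-08). Pericyte-like cells held 119 and 89.7 CPM, against 19.7 and 15.8 CPM (log2 2.36, SE 0.24, adjusted p = 4.67e-06). Fibroblast-like cells had 1 and 2 UMIs in all. Mesothelial-like cells differed between the animals, with 40.3 CPM (18 UMIs) in library 1 and 6.94 CPM (7 UMIs) in library 2. Their ratio to fibroblast-like cells was 70.3 (11.1 to 2928) in library 1 and 5.75 (1.09 to 56.7) in library 2.

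Igfbp7, a family relative that binds IGF weakly and is known as a matrix protein of vessels, was high in 4 stromal and vascular classes. It stood at 2687 and 2231 CPM in endothelial-like cells, 2835 and 2012 CPM in pericyte-like cells and 2588 and 2273 CPM in fibroblast-like cells, and the order of these 3 classes changed between the libraries. Each was called higher than all other cells (log2 0.80, adjusted p = 0.003, for endothelial-like, log2 0.60, adjusted p = 0.000739, for pericyte-like, and log2 1.47, adjusted p = 5.63e-17, for fibroblast-like cells). Mesothelial-like cells held 1459 and 1233 CPM, against 1594 and 1356 CPM in all other cells, a small difference (log2 -0.26, SE 0.07, adjusted p = 0.00101) that was not called without the library block (adjusted p = 0.138) and turned to log2 3.46 against the mean of the other classes. B-like cells held 12.5 and 11.8 CPM. At 1000 UMIs a cell 91.9% and 80.2% of pericyte-like cells carried an Igfbp7 UMI, against 0 of 126 (which allows up to 2.38%) and 2 of 98 B-like cells. Of T-like cells 3.25% and 4.32% did.

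**Figure D3:**
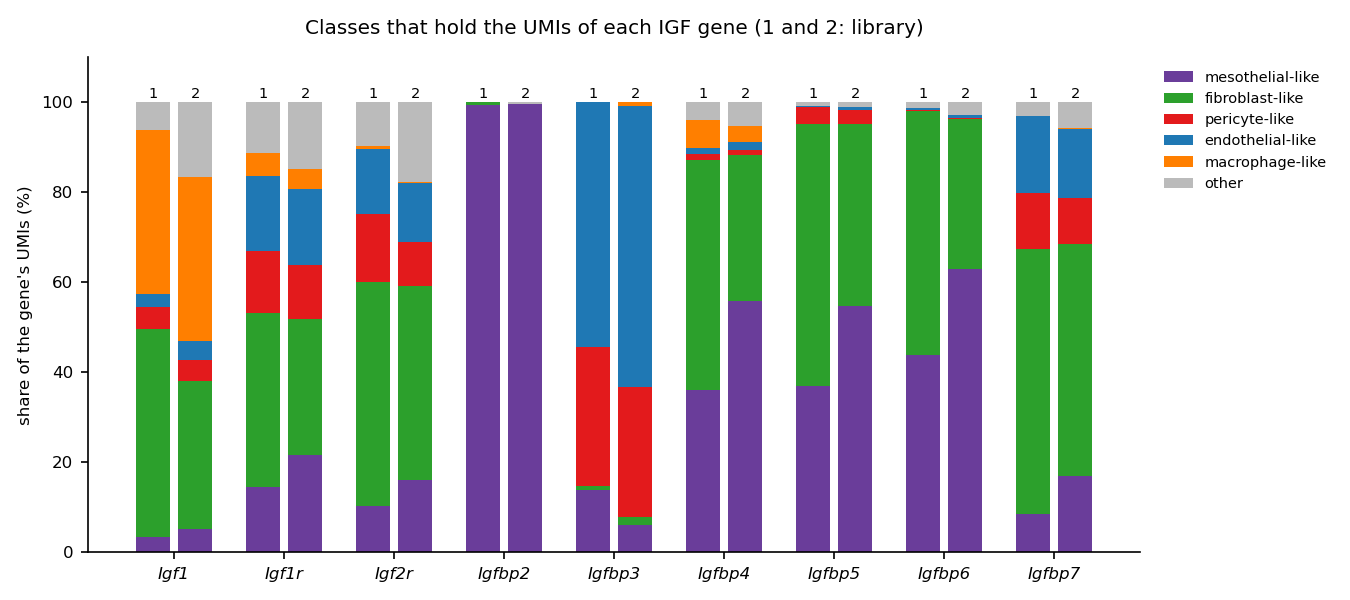
Share of each gene's UMIs (y axis, %) that came from each cell class, with 1 stacked bar per library for 9 genes; Igf2, with 7 and 3 UMIs, is left out. Mesothelial-like cells hold 99.4% and 99.5% of Igfbp2, endothelial-like cells 54.3% and 62.3% of Igfbp3, and macrophage-like cells 36.5% and 36.5% of Igf1.

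In the immune classes the binding proteins were mostly low. Macrophage-like cells were called lower than all other cells in 6 of the 9 members tested and higher in Igf1 alone, where 19.8% of all tested genes were called lower and 13.8% higher. Against the mean of the other classes 3 were called lower and 2 higher, where 7.14% of tested genes were called lower and 20.6% higher. DESeq2's test did not call the lower Igfbp3 (adjusted p = 0.184). ILC2-like cells were called lower in 7 and higher in none, where 7.55% of tested genes were called higher and 14.6% lower. Against the mean of the other classes 3 were called lower, where 4.4% of tested genes were. The call of a lower Igf1 in ILC2-like cells was lost by DESeq2's test (adjusted p = 0.115) and without doublet removal (adjusted p = 0.636). DESeq2's test also gave no adjusted p for some of the other lower members in ILC2-like cells, and so did not call them. The median log2 fold change of the 9 members in ILC2-like cells was -5.76, beside -0.74 for all genes. ILC2-like cells had 0 UMIs of Igfbp2 and Igfbp3, at most 2 of Igfbp5 and Igfbp6 in either library, and 30.4 and 43.8 CPM of Igf1r, against 79.9 and 84.2 CPM in all other cells (log2 -0.98, adjusted p = 0.136).

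Set directly against fibroblast-like cells, mesothelial-like cells were higher in 5 of the 9 members tested (Igfbp2, Igfbp3, Igfbp4, Igfbp5 and Igfbp6), where 18.9% of tested genes were called higher, and lower in 2 (Igf1 and Igfbp7), where 14.5% were called lower. The log2 fold changes were 1.39 (SE 0.20, adjusted p = 1.62e-07) for Igfbp4, 1.15 (SE 0.21, adjusted p = 2.25e-05) for Igfbp5 and 1.55 (SE 0.25, adjusted p = 1.88e-06) for Igfbp6. Igf1 was lower (log2 -2.02, SE 0.29, adjusted p = 2.72e-07), and so was Igfbp7 (log2 -0.94, SE 0.20, adjusted p = 0.000169). The 10 fibroblast markers were not a clean divider of these classes, since they summed to 13678.5 and 12810.3 CPM in the mesothelial-like class and to 18588 and 17533 CPM in the fibroblast-like one. The 11 mesothelial markers were, at 6263 and 5965 CPM against 167 and 177 CPM. DESeq2's test did not call the higher Igfbp2 (adjusted p = 0.327). Igf2r lay near the threshold in this comparison (log2 -0.64, adjusted p = 0.0562) and was called under DESeq2's size factors, without the filter on low counts, at both other clustering resolutions, without doublet removal and with the IGF genes in the clustering.

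Pericyte-like cells differed from fibroblast-like cells in 6 of the 9 members tested. Igf1r (log2 0.67, SE 0.21, adjusted p = 0.00942) and Igfbp3 were higher, where 21.4% of tested genes were called higher. The Igfbp3 ratio was 208 (35.2 to 8401) in library 1 and 74.3 (19 to 639) in library 2. Igf1 (log2 -0.97, adjusted p = 0.00858), Igfbp4 (log2 -3.05, adjusted p = 1.83e-14), Igfbp5 (log2 -1.73, adjusted p = 1.14e-07) and Igfbp6 (log2 -5.98, adjusted p = 1.21e-17) were lower, where 18.3% were called lower. The Igf1 difference was not called at clustering resolution 2.0 (adjusted p = 0.0656). The Igf1r difference was not called without the filter on low counts (adjusted p = 0.0789) or by DESeq2 (adjusted p = 0.0577).

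Against mesothelial-like cells, pericyte-like cells were higher in 4 members and lower in 4 of the 9 tested, where 20.9% of tested genes were called higher and 20.8% lower. Igfbp3 (log2 2.37, SE 0.41, adjusted p = 9.09e-06), Igfbp7 (log2 0.75, SE 0.20, adjusted p = 0.00215), Igf1 (log2 1.05, adjusted p = 0.0458) and Igf2r (log2 0.80, adjusted p = 0.0435) were higher. None of these 4 was called by DESeq2 (adjusted p between 0.0754 and 0.178). Igfbp2, Igfbp4, Igfbp5 and Igfbp6 were lower, with log2 -4.43 (SE 0.24) for Igfbp4, -2.88 (SE 0.25) for Igfbp5 and -7.53 (SE 0.37) for Igfbp6. DESeq2's test did not call the lower Igfbp2 (adjusted p = 0.314). Without the library block Igf1 (adjusted p = 0.0754) and Igf2r (adjusted p = 0.0734) were not called either.

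Pericyte-like and endothelial-like cells differed in 1 of the 9 members tested, Igfbp5, where 2.66% of all tested genes were called higher in pericyte-like cells and 0.796% lower. Igfbp5 had 64 and 76 UMIs in pericyte-like cells, or 190 and 207 CPM, against 3 and 16 UMIs, or 6.13 and 31.7 CPM, in endothelial-like cells. The ratio was 31.1 (10.2 to 155) in library 1 and 6.52 (3.77 to 12) in library 2, and the fit gave log2 3.28 (SE 0.37, adjusted p = 1.98e-08). At 1000 UMIs a cell, 10.8% and 12.3% of pericyte-like cells carried it, against 1.15% and 3.87% of endothelial-like cells. Without thinning these shares were 37.8% and 48.8% against 1.67% and 6.67%. The differences of Igfbp3 (log2 -0.54, SE 0.30) and Igfbp7 (log2 -0.11, SE 0.20) were not called. Igfbp6 was not called either (log2 -1.28, adjusted p = 0.123), but was called lower without the filter (adjusted p = 0.00439) and without doublet removal (adjusted p = 0.0219).

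Endothelial genes were counted in nearly all pericyte-like barcodes, 152 of 158 of which carried a UMI of Pecam1, Cdh5, Kdr, Flt1, Emcn or Egfl7. Pericyte-like cells of each library were therefore also split at the median of their share of endothelial-marker UMIs, a choice made after the values were seen. Cells above the median had 7177 and 7926 CPM of endothelial markers, against 4329 and 3809 CPM in cells below it. Igfbp3 was higher with them, at 152 and 112 CPM in cells above the median against 75.9 and 61.3 CPM below it. Igfbp5 was 214 and 195 CPM above against 159 and 221 CPM below, with opposite orders in the libraries. Igfbp7 was 2546 and 1924 CPM above against 3217 and 2122 CPM below, and Igf1r 188 and 156 CPM above against 110 and 141 CPM below. Igf2r was 99.3 and 73.2 CPM above against 82.9 and 67.5 CPM below. The part of endothelial RNA in the Igfbp3, Igf1r and Igf2r levels of pericyte-like cells was not tested further.

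**Figure D4:**
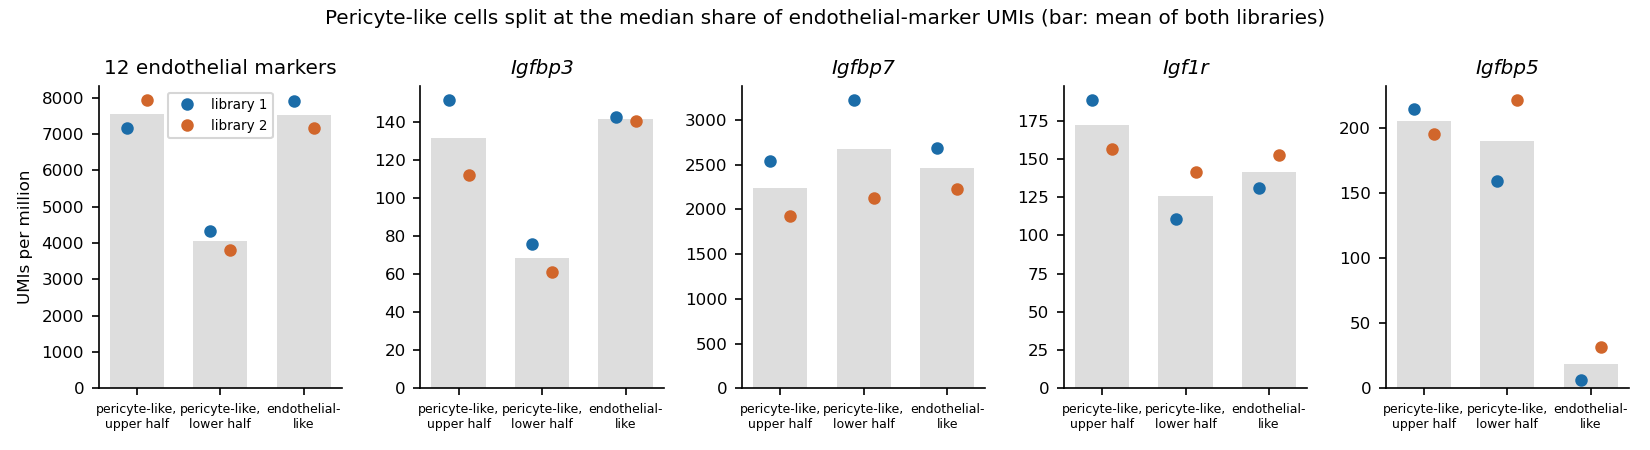
CPM (y axis) of 12 summed endothelial markers and of 4 IGF genes in pericyte-like cells above and below the library's median share of endothelial-marker UMIs, and in endothelial-like cells (x axis); bars are means of the libraries and points the libraries. Igfbp3 is at 152 and 112 above the median, 75.9 and 61.3 below it and 143 and 141 in endothelial-like cells, while Igfbp5 is high on both sides and 6.13 and 31.7 in endothelial-like cells.

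The 4 fibroblast-like clusters differed in their IGF genes. The genes given as leading a cluster are the 4 with the largest fold over the other fibroblast-like cells among called genes whose log2 CPM averaged 7 or more, the IGF and pathway genes left out. Cluster 6 (247 cells, led by Dmkn, Krtdap, Sbsn and Efhd1) was the Igfbp5 cluster and had the most Igfbp6, which was not limited to it. Cluster 14 (150 cells, led by Mgp, Cilp, Eln and Gas1) had the highest Igf1 level, but Igf1 was not limited to it. Clusters 5 (268 cells, led by Iigp1, Steap4, Cxcl12 and Cp) and 14 had the most Igfbp7. Of the 10 members, 7 passed the filter on low counts in each of these comparisons, and Igf2, Igfbp2 and Igfbp3 did not. For clusters 5, 7 and 14 the other fibroblast-like cells include cluster 6, which held 927 of 977 and 954 of 988 fibroblast-like Igfbp5 UMIs. The lower Igfbp5 of clusters 5, 7 and 14 follows from that make-up. Cluster 6 also had the least Igf1, Igf2r, Igfbp4 and Igfbp7, which lowers the level that clusters 5, 7 and 14 were set against. For Igfbp6, of which cluster 6 had the most, that level is raised. Clusters 5, 7 and 14 were not tested against each other without cluster 6.

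Cluster 6 differed from the other fibroblast-like cells in 6 of 7 members, 2 higher (10% of tested genes were called higher) and 4 lower (11.8% were called lower). Igfbp5 had 927 and 954 UMIs there, or 1555 and 1933 CPM, against 43.5 and 29.2 CPM in the other fibroblast-like cells (log2 5.51, SE 0.15, adjusted p = 2.34e-266). At 1000 UMIs a cell, 47.5% and 56.0% of cluster 6 cells carried it, against 1 of 121 and 1 of 130 cells of cluster 5. Without thinning the shares were 66.4% and 69.6% in cluster 6 against 0.794% and 1.41% in cluster 5. Igfbp6 was higher at 2901 and 2428 CPM, against 1368 and 1250 CPM (log2 0.96, SE 0.11, adjusted p = 1.33e-17). Igfbp7 was 1179 and 928 CPM, against 3319 and 2843 CPM (log2 -1.62, SE 0.11, adjusted p = 1.19e-45). Igfbp4 was 604 and 549 CPM, against 1128 and 1133 CPM (log2 -1.04, SE 0.11, adjusted p = 2.15e-18). Igf1 was 31.9 and 16.2 CPM, against 109 and 98.0 CPM (log2 -2.13, SE 0.26, adjusted p = 6.54e-15). The sixth call, Igf2r (log2 -0.75, adjusted p = 0.0112), was lost by DESeq2 (adjusted p = 0.908), without the library block (0.0577), with the stricter cell filter (0.296) and without doublet removal (0.0819).

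Cluster 5 stood at the opposite end for Igfbp5, with 1 and 2 UMIs (2.58 and 5.48 CPM), against 976 and 986 UMIs in the other fibroblast-like cells (adjusted p = 3.78e-131). Cluster 6 over cluster 5 gave a ratio of 602 (108 to 23792) in library 1 and 353 (97.4 to 2918) in library 2. Cluster 5 was higher in 3 of 7 members, where 8.16% of tested genes were called higher, and lower in 2, where 8.26% were called lower. Igfbp7 was 3792 and 3258 CPM, against 2245 and 1995 CPM (log2 0.76, SE 0.09, adjusted p = 7.32e-15). Igfbp6 was 814 and 753 CPM, against 2199 and 1840 CPM (log2 -1.33, SE 0.11, adjusted p = 2.70e-34). Igf2r (log2 0.78, adjusted p = 0.00919) and Igfbp4 (log2 0.41, adjusted p = 0.00133) were higher, and DESeq2's test called neither (adjusted p = 0.656 and 0.351). Igf2r was also not called with the stricter cell filter (adjusted p = 0.203) and Igfbp4 without the library block (adjusted p = 0.11).

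Cluster 14 was higher in 2 of 7 members, where 2.85% of tested genes were called higher, and lower in 1, where 2.27% were called lower. Igf1 was 191 and 208 CPM, against 62.9 and 50.3 CPM in the other fibroblast-like cells (log2 1.79, SE 0.22, adjusted p = 2.82e-13), below the level of macrophage-like cells in both libraries. Igfbp7 was 3792 and 3523 CPM, against 2370 and 2056 CPM (log2 0.71, SE 0.17, adjusted p = 0.000983). Igfbp5 was 74.9 and 20.4 CPM, against 648 and 697 CPM (log2 -3.80, SE 0.24, adjusted p = 1.99e-51). Igfbp6 was 2170 and 1947 CPM, against 1842 and 1540 CPM, and was not called (log2 0.27, SE 0.16, adjusted p = 0.462).

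Cluster 7 (328 cells, led by Smpd3, Fgl2, Thbs1 and Tfpi2) lay between the others. It was higher in Igfbp4 (1130 and 1127 CPM, against 877 and 875 CPM, log2 0.42, SE 0.08, adjusted p = 9.57e-06), where 2.22% of tested genes were called higher. It was lower in Igfbp5 (log2 -3.87, SE 0.15, adjusted p = 3.28e-141) and Igfbp6 (log2 -0.49, SE 0.07, adjusted p = 6.26e-10), where 1.99% were called lower. Its Igfbp6 level of 1369 and 1268 CPM lay above that of cluster 5 (814 and 753 CPM). It lay below those of cluster 14 (2170 and 1947 CPM) and cluster 6 (2901 and 2428 CPM). Cluster 6 is part of the cells that cluster 7 was set against, and cluster 7 was not tested without it. The Igfbp4 call was lost by DESeq2's test (adjusted p = 0.116) and without the library block (adjusted p = 0.275), and that of Igfbp6 without the block (adjusted p = 0.165). Igf1r was called in none of the 4 clusters, with cluster levels between 60.3 and 107 CPM.

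**Figure D5:**
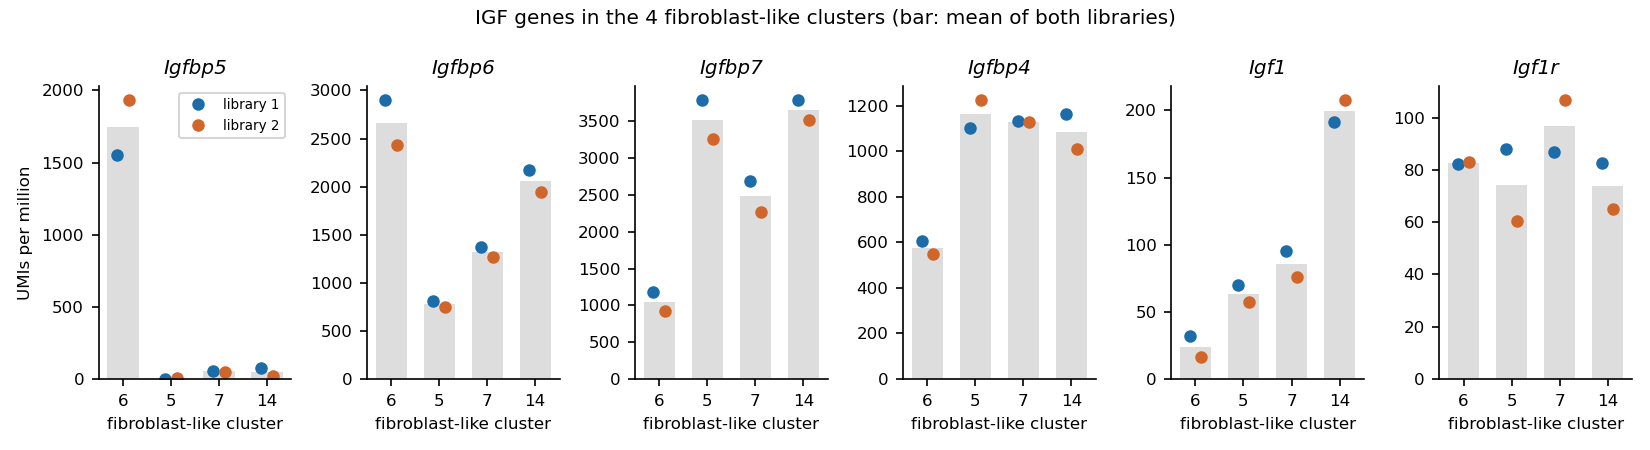
CPM (y axis, from 0) of 6 IGF genes in fibroblast-like clusters 6, 5, 7 and 14 (x axis); bars are means of the libraries and points the libraries. Igfbp5 is at 1555 and 1933 in cluster 6 and below 80 in the other clusters, and Igf1 is at 191 and 208 in cluster 14.

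The 40 further genes of the pathway (receptors and signalling, proteases and carriers, expression control, and partners of the binding proteins other than IGF) were tested in the same fits. Mesothelial-like cells had 7 higher and 11 lower of 31 tested, beside 22.4% of all genes called higher and 25.1% called lower. Among the largest differences were those of Htra1, a secreted protease known to cut IGFBP5, with 410 and 343 CPM in the class and 57.0 and 51.8 CPM elsewhere (log2 2.65, adjusted p = 5.43e-105), and of Cd93 (log2 -3.80) and Itga5 (log2 -2.45), which were lower.

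Fibroblast-like cells had 13 higher and 5 lower of 29 tested, beside 22.7% and 25.9% of all genes. Among the higher ones were Lrp1, an endocytic receptor reported to bind IGFBP3, at 632 and 643 CPM against 98.8 and 164 CPM (log2 2.46, adjusted p = 1.36e-20), Itga5 (log2 1.98) and Grb10, an adaptor that restrains the IGF1 and insulin receptors (log2 1.67). Cd93, a receptor of endothelial cells that binds IGFBP7, had 5 and 0 UMIs in fibroblast-like cells. It was higher in endothelial-like cells, at 764 and 812 CPM against 67.6 and 77.5 CPM in all other cells (log2 3.38, adjusted p = 5.35e-09), and in pericyte-like cells, at 601 and 704 CPM against 103 and 105 CPM (log2 2.45, adjusted p = 3.26e-07). The part of endothelial RNA in the pericyte-like level of Cd93 was not tested.

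Endothelial-like cells had 7 higher and 12 lower of 29 tested, beside 16.5% of all genes called higher and 21.6% called lower. Htra1 (log2 -3.33), Lrp1 (log2 -2.62) and Irs2, a docking protein of the receptors (log2 -2.38), were among the lower ones. Pericyte-like cells had 8 higher and 8 lower of 29 tested, beside 13.6% of all genes called higher and 18% called lower. Vtn, which encodes vitronectin, a matrix protein that forms complexes with IGF and IGFBPs, was at 164 and 128 CPM in pericyte-like cells against 5.32 and 4.50 CPM in all other cells (log2 4.68, SE 0.26, adjusted p = 2.91e-08). Pik3ca (log2 1.39) was higher and Akt2 (log2 -1.36) lower there, both of them kinases downstream of the receptor.

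Macrophage-like cells had 1 higher and 10 lower of 28 tested, beside 13.8% of all genes called higher and 19.8% called lower. They had 0 UMIs of Htra1 in either library, 0 and 1 of Grb10, and lower Socs2 (log2 -3.86) and Foxo1 (log2 -1.60). ILC2-like cells had 3 higher and 7 lower of 29 tested, beside 7.55% of all genes called higher and 14.6% called lower. They had 0 UMIs of Htra1 and Grb10, and 1 and 0 UMIs each of Lrp1 and Itga5. Socs2, a restraint on growth hormone signalling picked out after its values were seen, was high in ILC2-like cells at 768 and 744 CPM, against 80.9 and 89.2 CPM in all other cells (log2 3.34, SE 0.20, adjusted p = 2.60e-60).

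The genes whose levels were most alike over the 11 named classes were looked for among 5757 genes with at least 50 CPM in 1 class, as a description on the log2(CPM + 1) scale in which classes share libraries and depth. Igf2 was left out for its few UMIs. For Igfbp2 they were Chst4, Fxyd3 and Bnc1 (Pearson r at least 0.999 each). For Igfbp3 they were Tinagl1 (0.985), Cidec (0.977) and Esam (0.976), and for Igfbp7 Tshz2 (0.991), Cttn (0.983) and Grb10 (0.983). Igfbp6 was nearest to Col4a5 (0.985), Mmp23 (0.978) and C3 (0.971), Igfbp5 to Gpx8 (0.957), Fam162a (0.954) and Hoxc6 (0.953), and Igfbp4 to Ptpra (0.966), Rnase4 (0.955) and Tmed10 (0.947). Igf1 was nearest to Egr2 (0.956), Dirc2 (0.954) and Ywhag (0.954), Igf1r to Ski (0.973), Dst (0.971) and Fto (0.965), and Igf2r to Stk25 (0.947), Pvrl3 (0.930) and Sox4 (0.928). Cidec is a gene of fat cells, and the 7 adipocyte markers summed to 437 and 918 CPM in endothelial-like cells against 7.45 and 1.21 CPM in fibroblast-like cells.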

How the data were processed

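The members, gene lists and markers were chosen with earlier results of these data known. The deposited values are unnormalized UMI counts for every gene in each barcode, per the file headers. The submitters' processing notes name Cell Ranger and mm10; no Cell Ranger version is given in the sources used here. Barcodes under 200 genes or over 10% mitochondrial UMIs were left out (61). Scrublet removed 39 and 4 doublets, the small number in library 2 being 0.241% of its cells. Cells were clustered with scanpy 1.11.5 (2000 variable genes without the 50 IGF genes, 30 components, 15 neighbours, Leiden resolution 1). A name needed 3 markers above 2-fold. Of 151 markers 5 did not match 1 row. UMIs were summed per library and class and tested with edgeR 4.0.16 (R 4.3.3, quasi-likelihood, TMM, filterByExpr, Benjamini-Hochberg); pairs of classes came from 1 fit of 22 sums over 11 classes. The fit was tested on simulated data for part of the comparisons. Against all other cells, 2-fold changes were recovered in 41% of changed genes for ILC2-like, 45% for endothelial-like, 46% for pericyte-like and 80% for mesothelial-like cells. Changes of 4-fold were recovered in 89% for ILC2-like and 98% for mesothelial-like cells. A member not called may thus still differ by 2-fold. Library was a block because all classes of a library come from 1 mouse. All members were named, and up to 4 called further genes with the largest fold change and an average log2 CPM of at least 5 per comparison with all other cells; 1 of these is not reported here. Shares of cells carry exact (Clopper-Pearson) intervals in the tables. Intervals at 95% and limits from a count of 0 (3 UMIs, or 3 cells for a share of cells) cover counting error only. These limits lie below the exact ones, which for 0 of 154 and 0 of 162 T-like cells are 2.37% and 2.25%. DESeq2 1.42.0 and other settings were alternatives.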

Additional observations from a re-analysis of the deposited data

How the results depend on the processing

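Of the 86 differences called among 120 member and comparison pairs tested, 48 kept direction and call under every alternative that gave a value. DESeq2's Wald test lost 20 of the 83 calls for which it gave an adjusted p. Called pairs for which it gave none are not in that count. The fit with no replicate block lost 7 of 86, and the stricter cell filter (500 genes, 5% mitochondrial) 4 of 81. Resolution 2.0, no doublet removal and no filter on low counts lost 2 each. DESeq2's size factors, resolution 0.5 and clustering with the IGF genes lost none, and no called direction turned without replicate 1 or without replicate 2 (values with no test).

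The mean of the other classes in place of all other cells moved most. It turned 12 directions among pairs called in either fit, 9 of them called against all other cells, and lost 11 of 45 calls. Turns of pairs called in neither fit were not counted. The log2 values became 0.0388 for Igfbp2 in fibroblast-like cells, 0.46 for Igf1, 1.17 for Igf2r, 3.79 for Igfbp3 and 3.46 for Igfbp7 in mesothelial-like cells, 1.61 for Igf1, 0.0419 for Igfbp4 and 3.49 for Igfbp5 in pericyte-like cells, 0.77 for Igf1 and 0.12 for Igfbp4 in endothelial-like cells, and 0.34 for Igfbp3 and 2.84 for Igfbp4 in macrophage-like cells. By its construction every class there weighs the same, so immune classes with near 0 UMIs lower the mean. Of 9 members, those called lower numbered 0 in fibroblast-like (18.1% of all genes there), 0 in mesothelial-like (14.5%), 1 in pericyte-like (10.9%), 0 in endothelial-like (10.6%), 3 in macrophage-like (7.14%) and 3 in ILC2-like cells (4.4%), and those called higher 8 in mesothelial-like (32.4%) and 2 in macrophage-like cells (20.6%).

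With DESeq2's test, members called higher numbered 2 in pericyte-like cells against all other cells, 1 against fibroblast-like, 0 against mesothelial-like cells, 1 in cluster 5 and 0 in cluster 7, and those called lower 4 in ILC2-like cells and 0 in T-like cluster 1, where its adjusted p for Igfbp7 was NA. With no replicate block, 1 member was lower in mesothelial-like cells, 2 were higher in pericyte-like against mesothelial-like cells, and in cluster 7 it was 0 higher and 1 lower; the block changed the count by over 1.5 times nowhere else. With no filter on low counts 2 were lower in T-like cluster 1, 1 was higher in pericyte-like against fibroblast-like cells and 1 lower against endothelial-like cells, and with no doublet removal 1 lower against endothelial-like cells and 2 higher in cluster 7. The cause of these changes was not tested.

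As means of both libraries, the share of cells with a UMI was 50.2% for Igfbp2 in mesothelial-like cells, 68.0% for Igfbp5 in cluster 6 and 55.7% for Igf1 in macrophage-like cells with no thinning, and 52.5% for Igf1 at 2000 UMIs, so shares are tied to their depth. Pericyte-like cells with no endothelial UMI numbered 2 and 4, and cluster 7 found no match under the stricter filter, so neither alternative was run. At resolutions 0.5 and 2.0 classes were compared and clusters were not; the T-like clusters, compared after the values were seen, were also not compared under any other cell filter or gene choice for the clustering. At this depth Igf2, with 7 and 3 UMIs, passed the filter on low counts in no comparison.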
